A study of Mus musculus with 12 samples.

Results

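The mouse genes with a Zfp name, for zinc finger protein, were followed in RNA from in vitro differentiated cardiomyocytes. Members were the rows of the deposited expression table whose symbol begins with Zfp and a digit and that have a value in all 4 libraries. Zfp36, Zfp36l1 and Zfp36l2, whose fingers bind AU-rich RNA, and Zfp42, a stem cell marker, were left out. This gave 222 members, of 11692 genes with 4 values and of 23427 genes in the table. Without the 4 exclusions 283 rows carried a Zfp name: 50 had 1 to 3 values and 11 were blank throughout, and the medians and counts over the 222 members say nothing of these.

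Most Zfp-named genes encode proteins with tandem C2H2 fingers, small zinc-held folds that read DNA a few bases at a time. Many carry a KRAB box as well, which recruits Trim28 (KAP1) and through it Setdb1, a histone H3 lysine 9 methyltransferase, so that retroelements and imprinted regions stay silent. The genes often lie in tandem clusters that arose by duplication. The name also covers proteins of other kinds, among them ubiquitin ligases and RNA-binding proteins, and 24 of the 222 members have another symbol in RefSeq today.

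The cells were made from the murine embryonic stem (ES) cell line CM7/1, in a version with an inducible Hey2 gene and a version with an inducible Hey1 gene. Hey1 and Hey2 are related bHLH repressors that act downstream of Notch. Doxycycline at 1000 ng/ml was given for 48 h to the induced cells, with uninduced cells as controls. Each of the 4 combinations of line and treatment had 1 RNA library, so no difference has a replicate check and no p-value is given. No library came from doxycycline-treated cells that lack an inducible Hey gene, and the labels do not say whether each line is a single clone. Chromatin immunoprecipitation samples of the series were not analysed here.

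Expression is in RPKM, that is, reads divided by gene length and by library depth, so that levels of genes of different length can be compared. Whole reads could be recovered from the steps of these values, and 4182141 and 2296145 reads lay in listed genes of the induced and uninduced Hey2-line libraries, against 3142314 and 3151196 in those of the Hey1 line. Hey2 was listed at 6.59 RPKM in induced Hey2-line cells and was blank in uninduced ones. Hey1 stood at 8.59 RPKM in induced and 0.735 RPKM in uninduced Hey1-line cells, an 11.7-fold difference (95% counting interval 6.48 to 23.1). The 15 cardiomyocyte markers summed to 1530 and 1480 RPKM in induced and uninduced Hey2-line cells, against 27600 and 26900 RPKM in Hey1-line cells, and in Hey2-line cells all 15 were lower by at least 2-fold. Pluripotent stem cell markers summed to 324 and 318 RPKM in the Hey2 line, against 30.5 and 38.1 RPKM in the Hey1 line. The markers thus bear out the cardiomyocyte label less for Hey2-line cells than for Hey1-line cells, and line, clone, cell makeup and library cannot be told apart in any difference between lines below. Fibroblast markers summed to 77.8 and 61.6 RPKM in induced and uninduced Hey2-line cells, against 33.1 and 36.8 RPKM in Hey1-line cells, and endoderm markers to 16.9 and 18.7 RPKM, against 74.0 and 89.1 RPKM. Neural markers summed to 9.04 and 10.1 RPKM in the Hey2 line, against 20.4 and 17.8 RPKM in the Hey1 line, and endothelial markers to 11.1 and 10.5 RPKM, against 2.92 and 2.99 RPKM. Of these lists, Dcx and Apoa1 were blank in all 4 libraries. The part of any of these cell types in the members' line differences was not tested.

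The windows of 4 members that the results turn on are printed: Zfp206 and Zfp281 as stem cell factors higher in the Hey2 line, Zfp207 as the most abundant member, and Zfp651 as a member lower there. Each window holds the 250 bases before the transcription start in RefSeq (GRCm38.p6), 5′ to 3′ in the direction of the gene. The windows belong to Zfp206 (chr17:23600576-23600825, plus strand, listed as Zscan10 in RefSeq), Zfp281 (chr1:136624651-136624900, plus strand), Zfp207 (chr11:80383029-80383278, plus strand) and Zfp651 (chr9:121759783-121760032, plus strand). Capitals mark CACGTG, an E box that bHLH proteins can bind.
Zfp206: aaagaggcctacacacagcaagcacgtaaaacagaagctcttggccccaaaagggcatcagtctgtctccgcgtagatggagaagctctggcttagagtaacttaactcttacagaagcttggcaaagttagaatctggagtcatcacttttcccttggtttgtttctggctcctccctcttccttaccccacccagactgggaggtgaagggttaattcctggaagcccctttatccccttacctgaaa
Zfp281: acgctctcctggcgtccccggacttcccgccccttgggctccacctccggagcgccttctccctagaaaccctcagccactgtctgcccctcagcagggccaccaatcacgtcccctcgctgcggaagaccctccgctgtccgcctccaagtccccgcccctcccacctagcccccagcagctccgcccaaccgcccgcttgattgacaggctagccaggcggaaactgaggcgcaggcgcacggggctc
Zfp207: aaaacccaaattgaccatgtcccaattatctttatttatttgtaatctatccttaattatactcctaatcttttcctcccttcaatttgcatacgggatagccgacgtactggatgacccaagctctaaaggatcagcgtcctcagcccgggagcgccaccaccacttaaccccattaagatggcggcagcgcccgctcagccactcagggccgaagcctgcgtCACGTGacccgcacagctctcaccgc
Zfp651: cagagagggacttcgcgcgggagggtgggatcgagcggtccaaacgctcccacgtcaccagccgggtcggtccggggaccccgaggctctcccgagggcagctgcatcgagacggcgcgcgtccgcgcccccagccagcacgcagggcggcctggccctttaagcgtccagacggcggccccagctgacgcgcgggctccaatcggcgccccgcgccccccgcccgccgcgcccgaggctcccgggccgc

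Zfp206 has 3 CG pairs in its window, Zfp281 has 19, Zfp207 has 14 and Zfp651 has 38, beside a median of 13 over 223 member windows and 6 over all 32851 windows in the table. Zfp207 was the only gene of these 4 with CACGTG. Of the 176 members with a window, 8 held it: Zfp207, Zfp292, Zfp295, Zfp365, Zfp509, Zfp512, Zfp59 and Zfp708. That is 3.59% of member windows and 6.02% of all windows. The related CACGCG, searched on both strands and with no overlap with CACGTG possible in the same 6 bases, was in 9.87% of member windows and 7.62% of all windows. A match is a string of letters and no measured binding site.

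Members were expressed at low levels. Their median RPKM was 2.68 and 2.63 in induced and uninduced Hey2-line cells and 2.15 and 2.31 in Hey1-line cells. Other genes with 4 values had medians of 6.02 and 5.98 RPKM in the Hey2 line and 4.73 and 5.04 RPKM in the Hey1 line. The mean over the 4 libraries reached 1 RPKM for 186 of the 222 members. Behind these values stood a median of 94.5 and 52 reads per member in the induced and uninduced Hey2-line libraries and 56.5 and 58 reads in the Hey1-line libraries, so that small differences of single members are within counting error.

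The highest member was Zfp207, known as BuGZ, which binds Bub3 at kinetochores and helps build the spindle. It had 38.9 and 38.3 RPKM in induced and uninduced Hey2-line cells, against 11.3 and 13.6 RPKM in Hey1-line cells. Both Hey2-line libraries lay well above both Hey1-line libraries, and the ratio between the uninduced libraries was 2.82 (2.51 to 3.18). Here and below, the range after a ratio is its exact 95% counting interval, which covers the sampling of reads and not the spread between cultures.

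Next came Zfp106, an RNA-binding protein needed for motor neurons and their muscles, with 26.7 and 22.7 RPKM in induced and uninduced Hey2-line cells and 15.8 RPKM in both Hey1-line libraries. Its levels were again higher in the Hey2 line, with a ratio of 1.44 (1.32 to 1.56) in the uninduced pair. Zfp330, a nucleolar protein, had 18.6 and 19.5 RPKM in the Hey2 line and 9.09 and 9.79 RPKM in the Hey1 line. Zfp664 had 17.9 and 16.7 RPKM in the Hey2 line, against 7.55 and 7.99 RPKM in the Hey1 line. Zfp451, a SUMO ligase, had 12.3 and 12.4 RPKM in the Hey2 line, against 4.79 and 6.07 RPKM in the Hey1 line. Of the 8 members with the highest mean, Zfp568 was the only one lower in uninduced Hey2-line than in uninduced Hey1-line cells, at a ratio whose interval included 1 (0.899, 0.793 to 1.02).

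**Figure D1:**
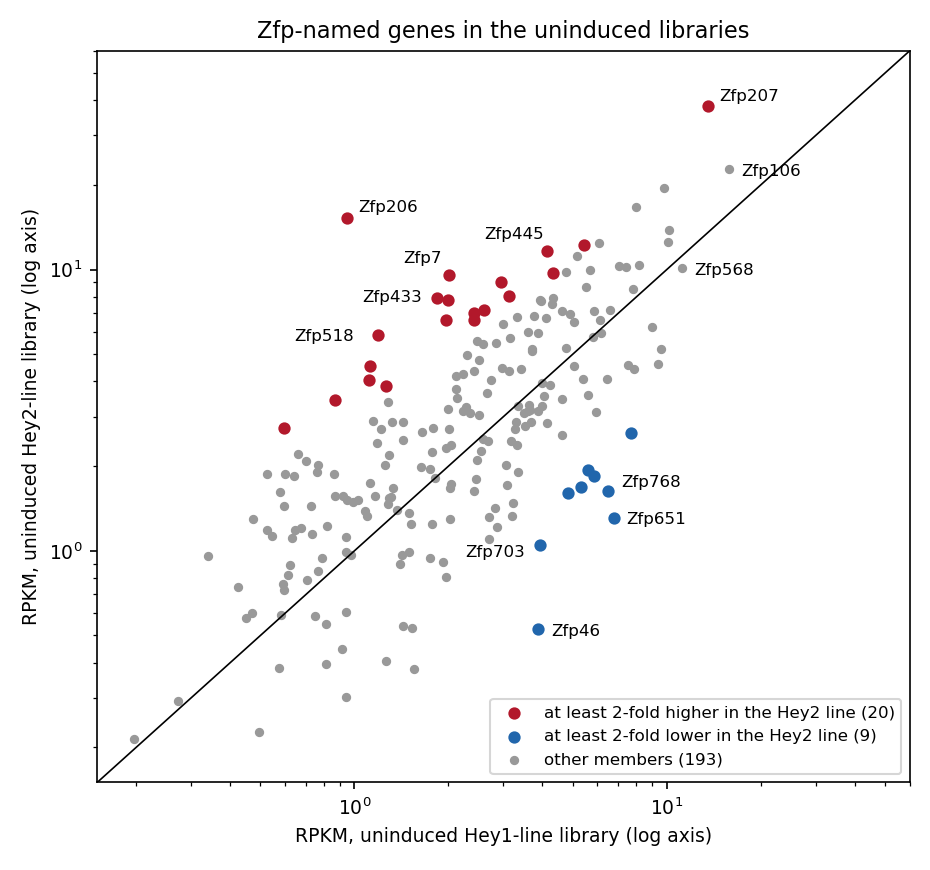
Each point is 1 of 222 Zfp-named genes, with its RPKM in the uninduced Hey2-line library on the vertical axis and in the uninduced Hey1-line library on the horizontal axis, both log axes, and the line marks equal levels. The 20 red genes were higher by at least 2-fold and the 9 blue genes at least 2-fold lower in the Hey2 line on the log2(RPKM + 1) scale, with Zfp206 farthest above the line.

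The question of the line comparison is how the family stood in Hey2-line cells relative to Hey1-line cells, and the uninduced pair asks this before doxycycline. The family as a whole lay close to other genes, with a few members far from equality. On the scale of log2(RPKM + 1), the median member was 0.21 higher in uninduced Hey2-line than in uninduced Hey1-line cells, and the median other gene 0.17 higher. Other genes were also sorted by mean RPKM into 10 bins, and each member was set against the other genes of its bin, called genes of like expression. The median member lay 0.10 above the median of its bin. In all, 141 members were higher and 81 lower in the Hey2 line, which puts 63.5% of members above 0, against 57.3% of other genes.

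At least 2-fold higher in uninduced Hey2-line cells were 20 members, or 9.01%, against 18.6% of all genes with 4 values. At least 2-fold lower were 9 members, or 4.05%, against 12.3% of all genes. Genes of like expression passed these sizes in 13.6% and 7.34% of cases, so that the members were spread less widely. The median size of the line difference, sign disregarded, was 0.46 for members and 0.54 for genes of like expression. The counting interval of the plain ratio lay above 1 for 87 members and below 1 for 37. The share of all genes with such intervals is not given here, so these counts are no result about the family.

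In the induced pair the median member was 0.27 higher in Hey2-line cells, the median other gene 0.23 higher, and the median member lay 0.07 above its bin. Here 29 members, or 13.1%, were higher in the Hey2 line by at least 2-fold, against 21.5% of all genes, and 12 members, or 5.41%, at least 2-fold lower, against 11.7%. The pairs share no library. The same direction at 2-fold held in both pairs for 16 higher members, which is 16 of 20 in the uninduced and 16 of 29 in the induced pair. It held for 9 lower members, which is 9 of 9 in the uninduced and 9 of 12 in the induced pair. No member was 2-fold higher in one pair and 2-fold lower in the other. How many of all genes kept their direction in both pairs is not given here, so this agreement is no result about the family.

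Scaling decides how far the family's median lies above 0, and it moves the median of all genes as well. With median-ratio scaling, the median of all genes moved by -0.16 in the uninduced and -0.23 in the induced pair, and the family's median was 0.08 and 0.06. With upper-quartile scaling, the shifts were -0.14 and -0.18 and the family's median was 0.10 in both pairs. The family's direction was kept under both, and 127 and 128 members were then above 0 in the uninduced pair.

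**Figure D2:**
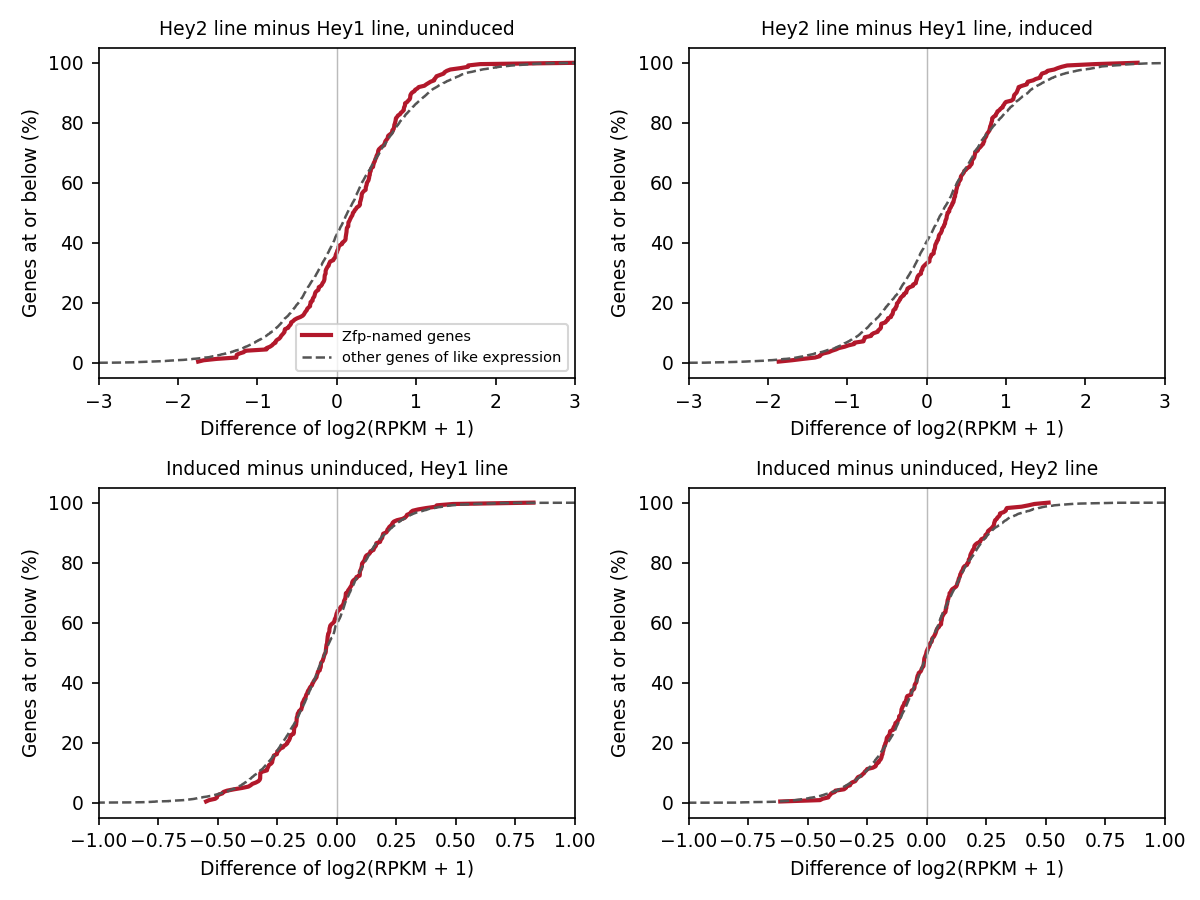
Each panel gives, for 1 comparison, the percent of genes at or below a difference of log2(RPKM + 1), for the 222 Zfp-named genes (solid) and for other genes weighted to the same expression bins (dashed). The curves of the 2 line differences cross near the middle and the members' curve is the steeper, while in the 2 inductions the curves nearly coincide around medians of -0.05 and -0.00.

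The line difference was not even over expression levels. Among the 46 members whose mean reached 5 RPKM, the median was 0.51 in the uninduced pair, against 0.19 for 6466 other genes at that level, and 36 of the 46 (78.3%) were higher in the Hey2 line, against 56.9% of the others. In the induced pair the same members had a median of 0.70, against 0.26, and 38 of 46 were higher in the Hey2 line. The 140 members between 1 and 5 RPKM had a median of 0.19 in the uninduced pair, against 0.21 for 4345 other genes. The 36 members under 1 RPKM had 0.07, against -0.03 for 659 others. The level of 5 RPKM was listed as an alternative filter, and its use to divide the family was chosen after the values were seen. The mean includes the libraries compared, so a member can reach 5 RPKM through 1 line. Zfp206, Zfp7, Zfp217, Zfp326, Zfp445, Zfp687 and Zfp740 were under 5 RPKM in both Hey1-line libraries and above it in both Hey2-line libraries. Zfp691 and Zfp428 passed through the Hey1 line. These are examples, and members of both kinds are not counted here. The median of 0.51 and the 36 of 46 thus rest in part on members that passed through the line where they are high. The other genes met the same filter, and the split is no separate support for a line difference.

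**Figure D3:**
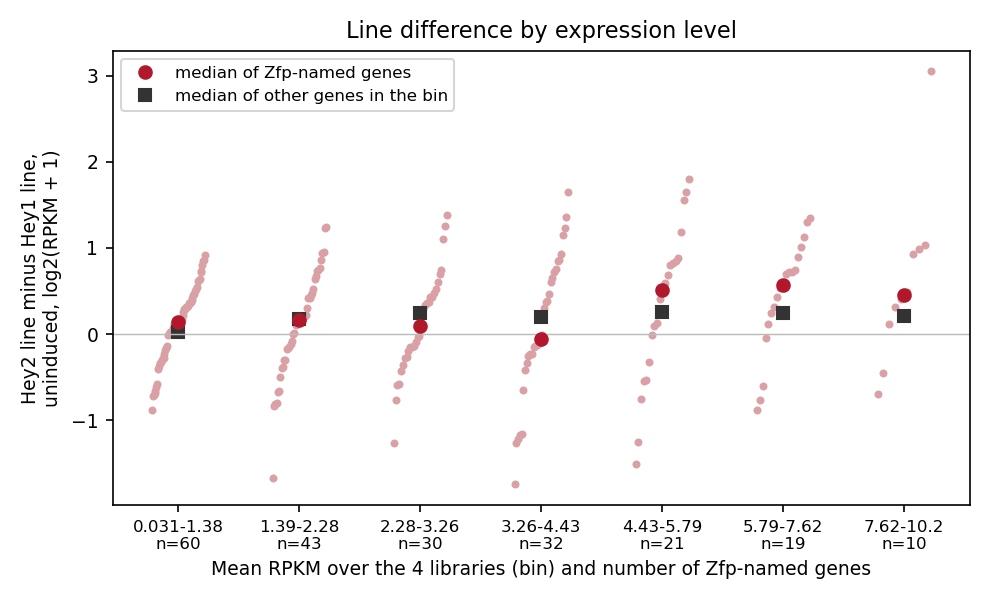
The difference of log2(RPKM + 1) between uninduced Hey2-line and uninduced Hey1-line libraries is shown on the vertical axis for members in 7 bins of mean RPKM, with small points for members, circles for their median and squares for the median of other genes in the bin. Bins with fewer than 10 members are not drawn, and the mean that sets the bins includes the libraries compared. The circles lie at 0.51, 0.57 and 0.45 in the 3 highest bins drawn, above the squares at 0.26, 0.25 and 0.21, and at -0.06 in the bin below them, under its square at 0.20.

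The members with known roles were grouped with their values in view. Those tied to the ES cell state were mostly higher in the Hey2 line and include the member with the highest ratio. Zfp206 (Zscan10), an ES cell transcription factor that works with Oct4 and Sox2, had 13.4 and 15.2 RPKM in induced and uninduced Hey2-line cells, against 1.28 and 0.949 RPKM in Hey1-line cells. Its levels in the Hey1 line rested on 26 and 19 reads. The uninduced ratio of 16.0 (10 to 27.0) was the farthest from 1 in the family and the induced ratio was 10.5 (7.02 to 16.2).

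Zfp281, a regulator of the exit from pluripotency, had 8.36 and 7.81 RPKM in the Hey2 line, against 1.74 and 2.0 RPKM in the Hey1 line. The induced and uninduced libraries of each line lay close together, and the uninduced line ratio was 3.90 (3.25 to 4.71). Zfp143, a promoter-bound activator, differed less, with a ratio of 2.13 (1.56 to 2.93). Zfp462 had a ratio of 1.8 (1.49 to 2.18), and for Zfp322a the interval included 1 (1.11, 0.884 to 1.39). All 5 were above 0 in both line pairs (4 in the uninduced pair under either scaling), with medians of 0.75 in the induced and 0.89 in the uninduced pair. Zfp206 was picked for its line difference and the group was formed with the values in view. The group's direction and median are thus no separate support. The 9 pluripotent stem cell markers with 4 values had a median of 2.92 in the induced and 2.85 in the uninduced pair. The part of the cell state in these members' levels was not tested.

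KRAB zinc finger repressors of imprinted regions and retroelements were mostly higher in the Hey2 line too. Zfp57, which keeps methylation at imprinting control regions, had 10.9 and 11.2 RPKM in induced and uninduced Hey2-line cells, against 3.33 and 5.17 RPKM in Hey1-line cells. Zfp445, which acts beside Zfp57 at imprints, had 9.34 and 11.6 RPKM in the Hey2 line, against 3.08 and 4.13 RPKM in the Hey1 line. For both genes, each Hey2-line value exceeded each Hey1-line value, with uninduced ratios of 2.17 (1.76 to 2.68) for Zfp57 and 2.82 (2.37 to 3.37) for Zfp445.

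Zfp809, which silences murine leukaemia virus-like elements, had 7.37 and 7.57 RPKM in the Hey2 line, against 4.22 and 4.28 RPKM in the Hey1 line, with an uninduced ratio of 1.77 (1.35 to 2.33). Zfp708, which also binds a class of retroelement, had 2.93 and 3.37 RPKM in the Hey2 line and 1.21 and 1.28 RPKM in the Hey1 line. Zfp568, a repressor of a placental Igf2 transcript, stood apart from these with 12.9 and 10.1 RPKM in the Hey2 line and 10.4 and 11.2 RPKM in the Hey1 line. Its groups overlapped between the lines.

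**Figure D4:**
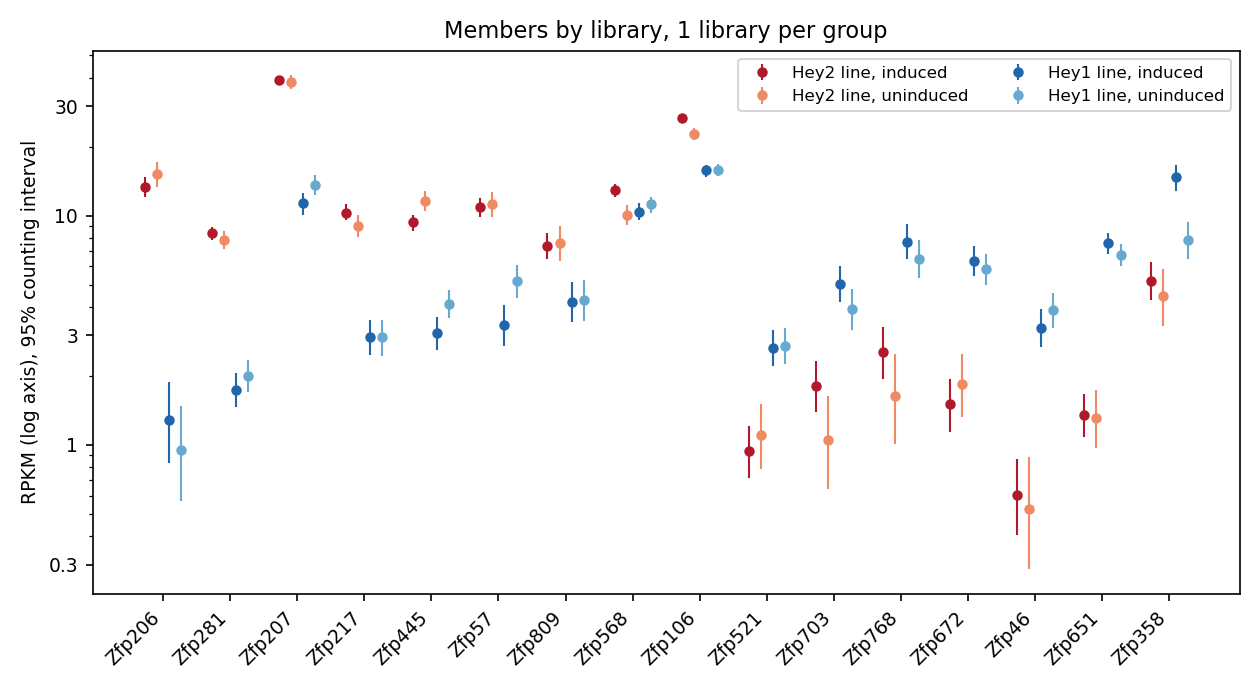
RPKM of 16 members on a log axis in the induced and uninduced Hey2-line libraries (red, orange) and the induced and uninduced Hey1-line libraries (dark and light blue), 1 library each, with exact 95% counting intervals as bars. Zfp206, Zfp281, Zfp207, Zfp217, Zfp445, Zfp57 and Zfp809 lie higher in both Hey2-line libraries, Zfp521, Zfp703, Zfp768, Zfp672, Zfp46 and Zfp651 lower, and Zfp358 has its highest value, 14.7 RPKM, in induced Hey1-line cells.

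The KRAB box works through partner proteins, whose median line difference was above that of the members. Of 19 partners, 17 were higher in uninduced Hey2-line cells, with a median difference of 1.11, or 0.90 above genes of like expression. At least 2-fold higher were 13 of them, against the 18.6% of all genes given above, and none was 2-fold lower. In the induced pair the median was 1.32 and 14 were at least 2-fold higher. Under either scaling 17 stayed above 0 in both pairs, with medians between 0.90 and 1.10, but those at least 2-fold higher numbered 10 in the induced and 6 in the uninduced pair. The list was chosen with earlier results of these data known, and its median level of 11.5 RPKM was above that of the members.

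Trim28, the scaffold that binds the KRAB box, had 92.8 and 97.8 RPKM in induced and uninduced Hey2-line cells, against 40.1 and 43.0 RPKM in Hey1-line cells, an uninduced ratio of 2.28 (2.11 to 2.46). Setdb1 had 9.75 and 9.65 RPKM in the Hey2 line, against 3.15 and 3.87 RPKM in the Hey1 line. Uhrf1, which guides the maintenance methyltransferase Dnmt1 to replicated DNA, had 20.1 and 19.3 RPKM in the Hey2 line, against 3.09 and 3.56 RPKM in the Hey1 line. All 3 were higher in both Hey2-line libraries. The exceptions were Atf7ip, a Setdb1 cofactor, with 9.90 and 9.10 RPKM in the Hey2 line and 12.9 and 11.4 RPKM in the Hey1 line, and Mbd3, a subunit of the NuRD complex, with 16.9 and 22.0 RPKM in the Hey2 line and 21.6 and 23.3 RPKM in the Hey1 line.

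**Figure D5:**
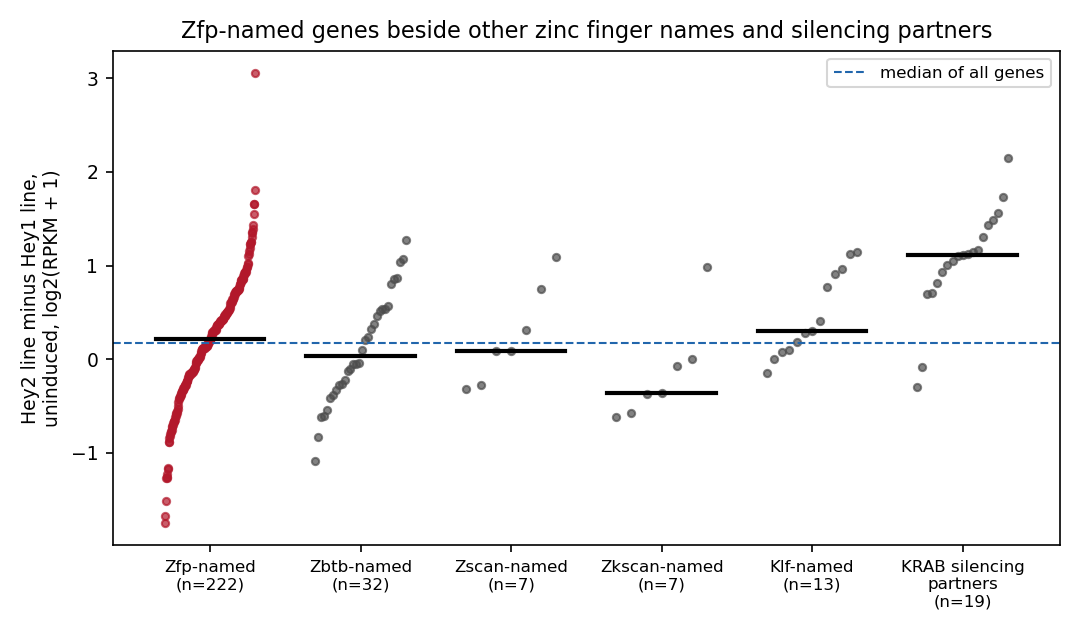
Difference of log2(RPKM + 1) between uninduced Hey2-line and uninduced Hey1-line libraries on the vertical axis, 1 point per gene, sorted within each group, with a bar at the group's median and a dashed line at the median of all genes, 0.17. The 222 Zfp-named genes centre at 0.21, the 32 Zbtb-named at 0.03, the 7 Zscan-named at 0.09, the 7 Zkscan-named at -0.36, the 13 Klf-named at 0.30 and the 19 KRAB silencing partners at 1.11.

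Genes of related C2H2 name families are given for comparison. In the uninduced pair, 16 of 32 Zbtb-named genes were higher in the Hey2 line, and their median turned to -0.07 under median-ratio and -0.06 under upper-quartile scaling. The median of the Zscan-named genes also changed sign under median-ratio scaling, to -0.01. Of the 7 Zkscan-named genes, 2 were higher in the Hey2 line, and their median stayed below 0 under both scalings. Of the 13 Klf-named genes, 12 were higher in the Hey2 line in the induced pair, with a median of 0.85, and 11 in the uninduced pair, with a median of 0.30. Those medians stayed above 0 under both scalings, at 0.57 and 0.10 under median-ratio scaling.

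Several members encode ubiquitin ligases, of which some act in protein quality control. Zfp598, the ubiquitin ligase that senses collided ribosomes, had 9.85 and 10.3 RPKM in the Hey2 line, against 6.81 and 7.03 RPKM in the Hey1 line. Zfp294, now Ltn1, the ligase that tags stalled nascent chains, had 5.68 and 5.44 RPKM in the Hey2 line, against 2.19 and 2.58 RPKM in the Hey1 line, with an uninduced ratio of 2.10 (1.71 to 2.60). Of 6 such ligases, 5 were above 0 in the uninduced pair, with a median of 0.38, and 4 under either scaling. The sixth, Zfp650 (Ubr3), had an uninduced ratio of 0.698 (0.605 to 0.804).

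RNA-linked members were alike in direction. Zfp326, which in human cells couples splicing to elongation, had 7.06 and 7.70 RPKM in the Hey2 line, against 2.61 and 3.97 RPKM in the Hey1 line. Zfp318, needed for the IgD transcript in B cells, had 3.38 and 2.86 RPKM in the Hey2 line, against 1.36 and 1.43 RPKM in the Hey1 line. With Zfp207 and Zfp106, all 4 were above 0 in both line pairs, in a group formed with the values in view. Zfp592, Zfp687 and Zfp532, which in human cells form a complex with ZMYND8, were mixed: the uninduced ratio was 1.97 (1.58 to 2.47) for Zfp687, 1.53 (1.23 to 1.90) for Zfp532 and 0.775 (0.601 to 0.996) for Zfp592.

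Other members at the high end are less well described. Zfp7 had 7.84 and 9.54 RPKM in induced and uninduced Hey2-line cells, against 2.28 and 2.01 RPKM in Hey1-line cells, an uninduced ratio of 4.74 (3.34 to 6.87). Zfp433 had 6.87 and 7.95 RPKM in the Hey2 line, against 1.51 and 1.84 RPKM in the Hey1 line. Zfp518 (Zfp518a) had 6.89 and 5.87 RPKM in the Hey2 line, against 0.819 and 1.19 RPKM in the Hey1 line. In none of these genes did the lines overlap. Zfp217, a transcription factor and in human an oncogene, had 10.3 and 9.02 RPKM in the Hey2 line and 2.94 RPKM in both Hey1-line libraries. At the edge of the 2-fold size, Zfp740 was just inside with a difference of 1.02 and Zfp57 just outside with 0.99.

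The members at the low end reached comparable sizes. Zfp651 had 1.35 and 1.31 RPKM in induced and uninduced Hey2-line cells, against 7.56 and 6.76 RPKM in Hey1-line cells, and was 5.15-fold lower (3.79 to 7.13) in the uninduced pair. Zfp46 had 0.603 and 0.525 RPKM in the Hey2 line, from 29 and 14 reads, against 3.25 and 3.88 RPKM in the Hey1 line, and was 7.38-fold lower (4.25 to 13.9). Zfp768 had 2.53 and 1.63 RPKM in the Hey2 line, against 7.71 and 6.50 RPKM in the Hey1 line. These 3 genes did not overlap between the lines either. Zfp672 was 3.16-fold lower (2.24 to 4.57) in the uninduced Hey2 line. The member just inside the 2-fold size was Zfp579 at -1.16 and the one just outside Zfp428 at -0.89.

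Factors of mesenchymal and progenitor cells differed among themselves and mostly lay lower in the Hey2 line. Of 5 such members, 1 was above 0 in the uninduced pair and 2 in the induced pair, with medians of -0.33 and -0.13. Both medians stayed below 0 under either scaling, with 1 of the 5 above 0 in each pair. Not all 5 are described here, and Zfp260, given last, was not one of them. Zfp703, a corepressor linked to Wnt signalling, had 1.81 and 1.05 RPKM in the Hey2 line, against 5.04 and 3.93 RPKM in the Hey1 line. Zfp521, a brake on differentiation in several progenitors, had 0.940 and 1.10 RPKM in the Hey2 line, against 2.64 and 2.70 RPKM in the Hey1 line. Its close relative Zfp423, a determinant of preadipocytes, went the other way, with 1.91 and 1.88 RPKM in the Hey2 line and 0.734 and 0.523 RPKM in the Hey1 line. For Zfp467, an adipogenic factor, the uninduced ratio was 0.992 (0.628 to 1.56). Zfp260, a cofactor of Gata4 in the heart, had 7.6 and 7.11 RPKM in the Hey2 line and 4.63 and 5.85 RPKM in the Hey1 line, with an interval that included 1 in the uninduced pair (1.22, 0.967 to 1.53), while the 15 cardiomyocyte markers had a median difference of -3.87.

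The inductions compare cells given doxycycline for 48 h with uninduced cells of the same line. Effects of Hey and of doxycycline itself cannot be told apart in them. No member reached 2-fold in induced Hey1-line against uninduced Hey1-line cells, where 0.0257% of all genes were that much higher and 0.103% that much lower. The same was true of induced against uninduced Hey2-line cells, where 0.00855% and 0.0342% of all genes passed. The median member differed by -0.05 in the Hey1 line, where the median other gene differed by -0.06, and by -0.00 in the Hey2 line, where the median other gene also stood at -0.00. Set against genes of like expression, the median member lay at -0.01 in both inductions. In the Hey1 line 82 members were above 0 and 140 below. Under median-ratio scaling, which moved the median of all genes by 0.07, the family's median was 0.01 and 116 members were above 0. Under upper-quartile scaling, which moved it by 0.05, the family's median was -0.01 and 102 members were above 0. The sign of so small a median is set by the scaling, and no direction is read from it. In the Hey2 line 110 members were above 0 and 111 below.

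A smaller size of 1.25-fold was added after no member had reached 2-fold. In the Hey1 line, 6 members (2.70%) were at least 1.25-fold higher in induced cells, against 3.26% of all genes, and 17 (7.66%) at least 1.25-fold lower, against 12.1%. In the Hey2 line, 8 members (3.60%) were that much higher, against 5.56% of all genes, and 12 (5.41%) that much lower, against 5.84%. Genes of like expression passed these sizes in 3.70% (higher) and 10.8% (lower) of cases in the Hey1 line and in 6.51% and 6.49% in the Hey2 line. These shares lie near those of the members, and nothing is read from their differences. The counting interval of the plain ratio lay above 1 for 3 members and below 1 for 18 in the Hey1 line, and above 1 for 9 and below 1 for 7 in the Hey2 line. For all genes these shares are not given here, and no lean of the family is read from the counts.

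The member farthest from equality in the Hey1 induction was Zfp358, with 14.7 RPKM in induced and 7.84 RPKM in uninduced Hey1-line cells, from 220 and 116 reads. Its ratio was 1.87 (1.49 to 2.36), and in the Hey2 line it was 1.17 (0.834 to 1.67), with 5.21 RPKM in induced and 4.44 RPKM in uninduced cells. Whether the ratios of the lines differ was not tested. For Zfp511 and Zfp341 the interval included 1, and for Zfp212 it lay just above 1 (1.57, 1.03 to 2.44). Zfp324, with a mean below 1 RPKM, also had an interval above 1 (1.70, 1.06 to 2.79), and it is named after its values were seen.

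On the low side of the Hey1 induction, Zfp57 had 3.33 RPKM in induced and 5.17 RPKM in uninduced Hey1-line cells, a ratio of 0.644 (0.493 to 0.839). In the Hey2 line the same gene had a ratio of 0.968 (0.826 to 1.14). Zfp617 had 4.07 RPKM in induced and 6.42 RPKM in uninduced Hey1-line cells, a ratio of 0.634 (0.481 to 0.832). Zfp160 had a ratio of 0.537 (0.335 to 0.845). Zfp326 had a ratio of 0.658 (0.457 to 0.940). Each of these intervals is for 1 gene and makes no allowance for the 222 that were looked at. The partners of the KRAB box lay below 0 in this induction in 15 of 19 cases, with a median of -0.15, or -0.09 against genes of like expression. Of other genes, only 38.8% were above 0 in this induction. Under median-ratio scaling 7 of the 19 partners were above 0 and their median was -0.07, so no direction of the partners is read from these values. Among pluripotent stem cell markers 8 of 9 were below 0, with a median of -0.15, or -0.08 under median-ratio scaling. They summed to 30.5 RPKM in induced and 38.1 RPKM in uninduced Hey1-line cells, and their part in the partners' values was not tested.

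In the Hey2 induction, Zfp568 had 12.9 RPKM in induced and 10.1 RPKM in uninduced Hey2-line cells, from 999 and 431 reads, a ratio of 1.28 (1.15 to 1.44). Zfp106 had a ratio of 1.18 (1.10 to 1.26), at 26.7 RPKM in induced and 22.7 RPKM in uninduced cells. Zfp703 had 1.81 RPKM in induced and 1.05 RPKM in uninduced cells, where it rested on 20 reads, a ratio of 1.72 (1.02 to 3.0). These 3 intervals lay above 1, and for Zfp768, Zfp653 and Zfp13, which had wide differences from few reads, they included 1. Zfp787 was lowest, with 3.96 RPKM in induced and 6.59 RPKM in uninduced Hey2-line cells, a ratio of 0.600 (0.430 to 0.839). Zfp647, Zfp524 and Zfp428 had lower values in induced cells with intervals that included 1.

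Of the 222 members, Zfp445 alone had an interval below 1 in both inductions and none had one above 1 in both. Its ratio was 0.803 (0.707 to 0.913) in the Hey2 line and 0.747 (0.597 to 0.933) in the Hey1 line. It is singled out here after its values were seen, and the share of all genes with such intervals is not given. Its values in each line differed by less than those between the lines, where the uninduced ratio was 2.82.

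Zfp-named genes often neighbour each other, and 11 runs of at least 3 neighbouring Zfp-named rows with 3 or more members held 39 members. Their median line difference in the uninduced pair was 0.20, and that of the 183 members outside such runs was 0.22. The longest run, Zfp420 to Zfp146, held 9 members of 11 rows, among them Zfp568 and Zfp260, and had a median of 0.28 in the induced and -0.09 in the uninduced pair, with 7 and 4 members above 0. Neighbours did not share a direction there. Of the 10 runs with 3 members, 4 were higher throughout and 1 lower throughout in the Hey2 line in both pairs, and members differed in direction in 5 runs of the uninduced and 4 of the induced pair. Zfp51, Zfp53 and Zfp52 were all higher in the Hey2 line, with medians of 0.98 in the induced and 0.84 in the uninduced pair, and Zfp84, Zfp30 and Zfp790 were all lower, with -0.39 and -0.50, and both directions held under either scaling. Such neighbours are near-copies of each other in many cases, and how reads that match several of them were assigned is not given, so values of single genes in runs are uncertain.

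In the run with the family's highest line difference, Zfp213 had a difference of -0.61 in the uninduced pair, Zfp13 one of 0.38 and Zfp206 one of 3.05. The distance of Zfp206 from equality was thus not shared by its neighbours.

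The 24 members that RefSeq now lists under another symbol had a median of 0.29 in the uninduced line pair, against 0.19 for the 198 still named Zfp. They include Zfp206 (Zscan10), Zfp161 (Zbtb14), Zfp238 (Zbtb18) and the ligases Zfp313 (Rnf114) and Zfp364 (Rnf115). Zfp161 had an uninduced ratio of 1.77 (1.24 to 2.54), and Zfp238, a repressor in neural and muscle differentiation, had one of 0.557 (0.428 to 0.720).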

How the data were processed

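RNA was extracted with a Qiagen RNeasy kit and sequenced from NEBNext libraries, per the labels' protocols. The authors deposited RPKM for each gene in 1 column per library, per the file headers. The deposited signed fold of each line, a score that is the ratio of induced to uninduced or minus its inverse, was not used for any result. Bowtie 1.0, DESeq and MACS 1.4.1 and the build mm9 are named, per the submitters' processing notes, with no step assigned. How reads were counted, with which strand setting and with what rule for several matches, is not given in the sources used here, so near-identical, overlapping and antisense genes are uncertain.

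Within the deposited RPKM, values are whole multiples of what 1 read is worth, and whole reads were recovered for 15363 of 15371 genes with a value (99.9%), within 3e-06 reads. After 1 library's depth was changed by 1%, 10.3% did. Simulated tables returned their exact reads for 97.3% of 2917 genes. The smallest listed values stand for 5 reads in the Hey2 line and 10 in the Hey1 line, so a blank was read as fewer reads than that and not as 0.

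Differences were taken on the log2(RPKM + 1) scale, with uninduced subtracted from induced libraries and the Hey1 line from the Hey2 line, and the pseudocount of 1 RPKM understates the change of low genes. Ratios are of plain RPKM, with exact conditional binomial 95% intervals from the recovered reads, and RPKM in the plots have exact Poisson intervals. Duplicate PCR copies are not independent, so all intervals cover counting error only. With 1 library per group no test across genes was made. Named members were the 5 highest and 5 lowest in the uninduced line pair and the 4 and 4 in each induction, at a mean of at least 1 RPKM, the 8 with the highest mean, members with a role known from the literature, and runs of at least 3 neighbours in the RefSeq gene order. A member that this rule names is not reported here. A few others were named after their values were seen: Zfp292, Zfp294, Zfp295, Zfp324, Zfp364, Zfp365, Zfp509, Zfp512, Zfp59, Zfp650 and Zfp691. The members and lists were chosen with earlier results of these data known. A grouping of members by finger number and KRAB box was planned and was not made, since no protein sequences were used here. Gene names, the order of genes and the windows before transcription starts came from RefSeq tables of GRCm38.p6, a different build from mm9. The tools were NumPy 2.4.6, SciPy 1.17.1, pandas 2.3.3 and Matplotlib 3.10.9 under Python 3.11.15.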

Additional observations from a re-analysis of the deposited data

How the results depend on the processing

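No paired analysis was possible because each group had 1 library. Each value below is from 1 change of processing, and the cause of a change was not tested unless the setting removes members. The sizes used for counts in the text rest on the pseudocount. With 0.1 RPKM in its place, 46 members were 2-fold higher and 20 lower in the Hey2 line in the uninduced pair, 56 and 21 in the induced pair, and the induced median was 0.40. In the Hey1 induction 23 were then 1.25-fold higher, 47 lower and 1 2-fold lower, and in the Hey2 induction 27 were 1.25-fold higher, 29 lower and 1 2-fold higher. With no pseudocount the medians were 0.36 and 0.45 in the uninduced and induced line pairs, with 49 and 59 members 2-fold higher and 25 and 23 lower. The 1.25-fold counts were then 24 higher and 50 lower in the Hey1 induction, with 3 at 2-fold lower, and 29 higher and 30 lower in the Hey2 induction, with 1 at 2-fold higher.

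Keeping members with a mean of at least 5 RPKM, which leaves 46, gave medians of 0.51 and 0.70 in the uninduced and induced line pairs, or 0.35 and 0.40 above genes of like expression, with 8 and 13 members 2-fold higher and 1 and 3 lower. The 1.25-fold counts were 2 higher and 4 lower in the Hey1 and 2 and 2 in the Hey2 induction. This filter uses a mean that includes the libraries compared, so a member can pass it through 1 line. Keeping members with at least 50 reads in each library, added after the values were seen, gave medians of 0.40 and 0.45, with 11 and 17 members 2-fold higher and 1 and 2 lower, and 1.25-fold counts of 1 higher and 8 lower in the Hey1 and 1 and 3 in the Hey2 induction. With blanks read as 0 RPKM, 32 and 45 members were 2-fold higher in the Hey2 line, and the induced median against genes of like expression turned to -0.04. The Hey1 induction then had 1 member 2-fold higher, 1 lower, 15 at 1.25-fold higher and 28 lower, and the Hey2 induction had 14 at 1.25-fold higher.

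Median-ratio scaling gave medians of 0.08 and 0.06 in the uninduced and induced line pairs and 0.01 in the Hey1 induction, with 17 members 2-fold higher in the induced pair and 14 at 1.25-fold higher in the Hey1 induction. Upper-quartile scaling gave 0.10 in both line pairs and -0.01 in the Hey1 induction, with 18 and 13 members in those counts. Of the family's medians and counts under these and the other settings (a mean of at least 1 RPKM, 20 bins, bins of length and expression together, members still named Zfp), 125 stayed within 1.5 times (counts) or within the 95% binomial interval of the median, and 63 moved. For single named members 976 moved by less than their counting interval allows, 48 moved, and none with a 2-fold difference changed direction. Depth limits single members: with a median of 52 to 94.5 reads each, small differences of 1 gene cannot be seen.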

Other observations

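Zfp-named genes without a value in every library leaned to the Hey2 line. Of 272 Zfp-named rows with any value, 28 (10.3%) were listed in the Hey2 line alone and none in the Hey1 line alone. Among 15099 other listed genes, 18.2% were listed in the Hey2 line alone and 1.01% in the Hey1 line alone, so the lean was smaller in the Zfp-named rows, and the lower listing limit of the Hey2 line acts in the same direction. Zfp473 had 2.58 and 2.38 RPKM in induced and uninduced Hey2-line cells, from 102 and 52 reads, and was blank in both Hey1-line libraries. Measured against the listing limit of the Hey1 line, that is at least 7.38-fold higher in the induced and at least 6.70-fold higher in the uninduced pair. Zfp677 had 2.81 and 2.51 RPKM in the Hey2 line and was blank in the Hey1 line, at least 6.14-fold and 5.41-fold higher. Zfp459 had 1.94 and 1.93 RPKM in the Hey2 line and was blank in the Hey1 line. Zfp296, a factor of germ cells and stem cells, had 2.52 and 2.39 RPKM in the Hey2 line, against 1.39 RPKM in induced Hey1-line cells and a blank in uninduced ones. Zfp473 and Zfp677 were chosen after their values were seen.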
